A study of Mus musculus with 2 samples.

Results

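Transcripts of the tricarboxylic acid cycle enzymes were compared between the dormant DMC-derived mouse melanoma line B16F1-GFP-D and its maternal line B16F1-GFP-M. The genes were *Pdha1*, *Pcx*, *Cs*, *Idh2*, *Idh3a*, *Ogdh*, *Suclg1*, *Fh1* and *Mdh2*, that is, 9 of the 27790 genes that the arrays represent, found by name among the 41174 probes that are not controls, of which 41164 were kept. They were read by 12 probes, 1 for each gene except *Pdha1*, *Cs* and *Ogdh*, which had 2. B16F1 is a melanoma line of C57BL/6 mice. Both lines carried a GFP transgene introduced by transfection with selection, were grown in DMEM with 10% serum and 1% antibiotics, and received no treatment. B16F1-GFP-D was founded by 1 clone of GFP+ cells sorted from pooled organs of control and immunised mice that had stayed free of tumours for a year, so that it stands for 1 clone that grew in culture and not for dormant cells in an organ.

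There were 2 Agilent two-colour arrays, on 1 slide, in which the RNAs of both lines, each with its own dye, compete for 1 set of spots. On array 1 the dye of B16F1-GFP-M was Cy5 and that of B16F1-GFP-D was Cy3, and array 2 had the dyes exchanged. The labels name no separate cultures or extracts, so the arrays counted as 1 replicate per line. No test between the lines could be made, and precision is limited by the small number of arrays. Each ± below is the standard deviation between the 2 arrays, which includes dye effects and leaves out variation between cultures. Detection meant a signal well above background on both arrays in 1 line or in both, and 12539 genes were detected. All 7 melanocyte markers tested (*Tyr*, *Tyrp1*, *Dct*, *Pmel*, *Mlana*, *Mitf* and *Sox10*) were detected, 2 of 7 fibroblast markers, 2 of 6 leukocyte markers and 0 of 4 endothelial markers. The summed intensity of the melanocyte list was 404484.5 in B16F1-GFP-M and 319166.1 in B16F1-GFP-D on array 1, and 337666.0 and 346082.6 on array 2. *Mitf*, the melanocyte master regulator, was 1.89-fold lower in B16F1-GFP-D, past 1.5-fold on both arrays. *Dct*, a pigment enzyme, was 1.72-fold lower but under 1.5-fold on array 2. Of the 7 melanocyte genes, 4 were lower and 2 higher in the dormant line with the same direction in either dye order. The higher ones were *Pmel*, by 1.23-fold, and *Mlana*, by 1.11-fold, while *Tyrp1* changed direction between the arrays. The summed intensity of the fibroblast list was 565.8 and 580.9 in B16F1-GFP-M and 609.1 and 634.5 in B16F1-GFP-D. Of its detected genes, *Pdgfrb* was 1.78-fold higher and *Col1a2* 1.26-fold lower. The part of these differences in the results below was not tested. Fewer transcripts per cell and fewer cells with the transcript cannot be told apart in RNA of a whole culture.

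The cycle runs in the mitochondrial matrix. Acetyl-CoA, made from pyruvate by the pyruvate dehydrogenase complex, is joined to oxaloacetate by citrate synthase, and the citrate is oxidised stepwise back to oxaloacetate, which yields NADH and FADH2 for the respiratory chain and intermediates for the synthesis of amino acids, lipids and haem. Pyruvate carboxylase is a second entry, which makes oxaloacetate from pyruvate directly. In tumour cells the cycle also supplies building blocks for growth, and glutamine is a further source of its intermediates.

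*Idh2* and *Idh3a*, which oxidise isocitrate, were higher in B16F1-GFP-D by more than 2-fold on each array, and *Ogdh*, at the step after them, by more than 1.5-fold. *Cs*, *Suclg1*, *Fh1* and *Mdh2* reached neither limit on both arrays. All 7 cycle enzymes, *Cs*, *Idh2*, *Idh3a*, *Ogdh*, *Suclg1*, *Fh1* and *Mdh2*, had a log2 ratio, the level in B16F1-GFP-D relative to B16F1-GFP-M, above 0 on both arrays, with means from 0.51 to 1.82, although after median centring alone only 2 of the 9 genes did. Of all detected genes, 41.0% had a ratio above 0 on both arrays. *Idh2* was 3.53-fold and *Idh3a* 2.72-fold higher, and these 2 of the 9 genes were called, meaning that each array showed a ratio of 2-fold or more with the same sign. Of all detected genes, 5.02% were called in either direction and 3.09% as higher. *Pdha1* and *Pcx*, the enzymes that bring pyruvate carbon into the cycle, were at -0.12 and -0.20 on the log2 scale by their brightest probes. The second probe of *Pdha1* gave 0.11, with values on either side of 0, so that gene has no assigned direction.

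Every one of the 12 probes was well above background in all channels and 0 were saturated. Their raw signal was at least 8.53 times the local background in every channel. The lowest value belonged to *Pcx*, at 8.53 to 9.83 times, and every other probe reached 10.2 times or more. The probe of *Idh2* is shown because this gene had the largest difference of the 9 genes. The probes of *Ogdh* are shown because neighbouring stretches of 1 transcript gave similar mean log2 ratios, 0.88 and 0.95. On array 1 alone they gave 0.67 and 0.89. Each probe shown is a 60-mer written 5′ to 3′ in the sense of the transcript. The *Idh2* probe lies at chr7:87242779-87242838 on the minus strand of mm9 and starts at base 892 of the transcript. The *Ogdh* probes lie at chr11:6255299-6255358 and chr11:6255369-6255428 on the plus strand and start at bases 2924 and 2994.
Idh2 probe: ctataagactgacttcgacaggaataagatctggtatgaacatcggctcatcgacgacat
Ogdh probe 1: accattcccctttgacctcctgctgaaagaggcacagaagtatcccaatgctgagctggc
Ogdh probe 2: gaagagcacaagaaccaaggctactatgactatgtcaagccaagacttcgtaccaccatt
The probe of *Fh1* covers 2431 bases of chromosome 1, at 177531659 to 177534089, and therefore crosses an intron. The other member probes each lie within a single stretch of 60 bases on chromosomes X (*Pdha1*), 19 (*Pcx*), 10 (*Cs*), 9 (*Idh3a*), 6 (*Suclg1*) and 5 (*Mdh2*). Their exon, intron and UTR annotation was not analysed here.

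*Pdha1* encodes the catalytic alpha subunit of the pyruvate dehydrogenase complex. The normalized log2 intensity of its brighter probe was 11.19 in B16F1-GFP-M and 11.07 in B16F1-GFP-D on array 1, and 11.17 and 11.07 on array 2. The lines were close to each other on both arrays, with B16F1-GFP-D the lower. The log2 ratio was -0.12 ± 0.01 for this probe and 0.11 ± 0.19 for the second probe, with -0.02 on array 1 and 0.25 on array 2. The probes of *Pdha1* therefore gave opposite signs, and no direction could be assigned to the gene.

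*Pcx* encodes pyruvate carboxylase, which makes oxaloacetate. On the scale of normalized log2 intensity it was at 8.73 in B16F1-GFP-M and 8.52 in B16F1-GFP-D on array 1, and 8.66 and 8.47 on array 2. It was the only one of the 9 genes whose single probe was lower in B16F1-GFP-D on both arrays. The log2 ratio was -0.20 ± 0.01, that is, 1.15-fold lower, a difference smaller than that of *Cs*, the closest cycle enzyme, and far from the 1.5-fold limit.

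*Cs* encodes citrate synthase, which condenses acetyl-CoA with oxaloacetate. Its normalized log2 intensity was 14.39 in B16F1-GFP-M and 14.79 in B16F1-GFP-D on array 1, and 14.34 and 14.97 on array 2. B16F1-GFP-D was the higher in both dye orientations. The log2 ratio was 0.51 ± 0.16, or 1.43-fold, and the second probe gave 0.50 ± 0.27. The arrays ranked in opposite order for the probes of *Cs*, with 0.40 and 0.62 for the first and 0.69 and 0.31 for the second, while the means were the same to within 0.01.

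*Idh2* encodes the mitochondrial NADP-dependent isocitrate dehydrogenase, which makes NADPH in the matrix and can run in reverse. The signal of its probe, as normalized log2 intensity, was 9.95 in B16F1-GFP-M and 11.75 in B16F1-GFP-D on array 1, and 10.03 and 11.87 on array 2. Both values of B16F1-GFP-D lay above both values of B16F1-GFP-M. The log2 ratio was 1.82 ± 0.03, the largest of the 9 genes, with 1.80 on array 1 and 1.84 on array 2.

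*Idh3a* encodes the catalytic alpha subunit of the NAD-dependent isocitrate dehydrogenase, which carries the oxidative step of the cycle. Its normalized log2 intensity was 11.01 in B16F1-GFP-M and 12.18 in B16F1-GFP-D on array 1, and 10.91 and 12.63 on array 2. The lines did not overlap. The log2 ratio was 1.44 ± 0.39, and its 2 values, 1.17 and 1.72, were the farthest apart among the 9 genes.

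*Ogdh* encodes the first subunit of the 2-oxoglutarate dehydrogenase complex, which makes succinyl-CoA. The brighter *Ogdh* probe had a normalized log2 intensity of 9.42 in B16F1-GFP-M and 10.08 in B16F1-GFP-D on array 1, and 9.29 and 10.39 on array 2. The lines again did not overlap. The log2 ratio was 0.88 ± 0.31, or 1.84-fold, and 0.95 ± 0.09 for the second probe, with array 1 below 2-fold and array 2 above it for both probes. *Ogdh* was thus not called at 2-fold but passed the limit of 1.5-fold on both arrays, as did *Idh2* and *Idh3a*. These 3 of 9 genes stood against 8.77% of all detected genes that were 1.5-fold higher, and 0 of 9 were 1.5-fold lower, against 7.02% of all detected genes.

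*Suclg1* encodes the alpha subunit shared by both forms of succinyl-CoA synthetase, which makes GTP or ATP. Its normalized log2 intensity was 12.22 in B16F1-GFP-M and 12.78 in B16F1-GFP-D on array 1, and 12.39 and 12.90 on array 2. *Fh1* encodes fumarase, which hydrates fumarate to malate and is also found outside mitochondria. Its values were 12.35 and 12.96 on array 1, and 12.36 and 12.87 on array 2, in the same order of lines. In both genes B16F1-GFP-D was higher with little spread. The log2 ratios were 0.53 ± 0.04 for *Suclg1* and 0.56 ± 0.07 for *Fh1*, or 1.45-fold and 1.47-fold.

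*Mdh2* encodes the mitochondrial malate dehydrogenase, which closes the cycle at oxaloacetate. For *Mdh2* the normalized log2 intensity was 15.48 in B16F1-GFP-M and 16.04 in B16F1-GFP-D on array 1, and 15.24 and 16.08 on array 2. The lines did not overlap. The log2 ratio was 0.70 ± 0.20, or 1.63-fold, with 0.56 on array 1, which is under 1.5-fold, and 0.84 on array 2.

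**Figure D1:**
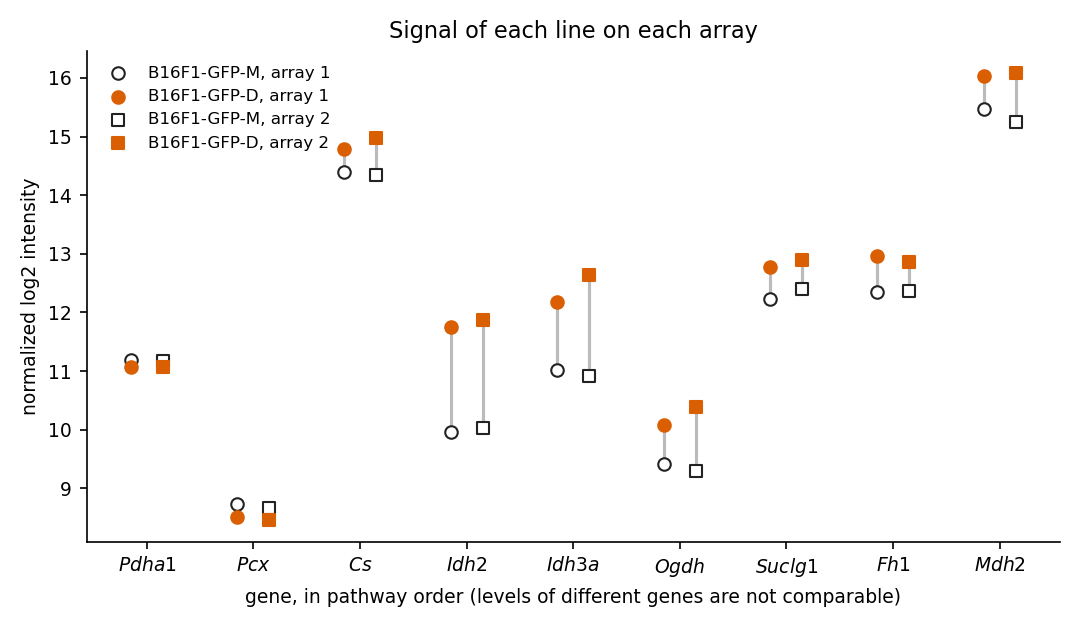
Normalized log2 intensity (vertical axis) of the 9 genes in pathway order, read from the brightest probe. Open symbols are B16F1-GFP-M and filled symbols B16F1-GFP-D, circles are array 1 and squares array 2, and a grey line joins both lines on 1 array. The filled symbols lie above the open ones in all 7 cycle enzymes, farthest for *Idh2* (9.95 against 11.75 on array 1), and just below them for *Pdha1* and *Pcx*. Heights of different genes are not comparable.

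**Figure D2:**
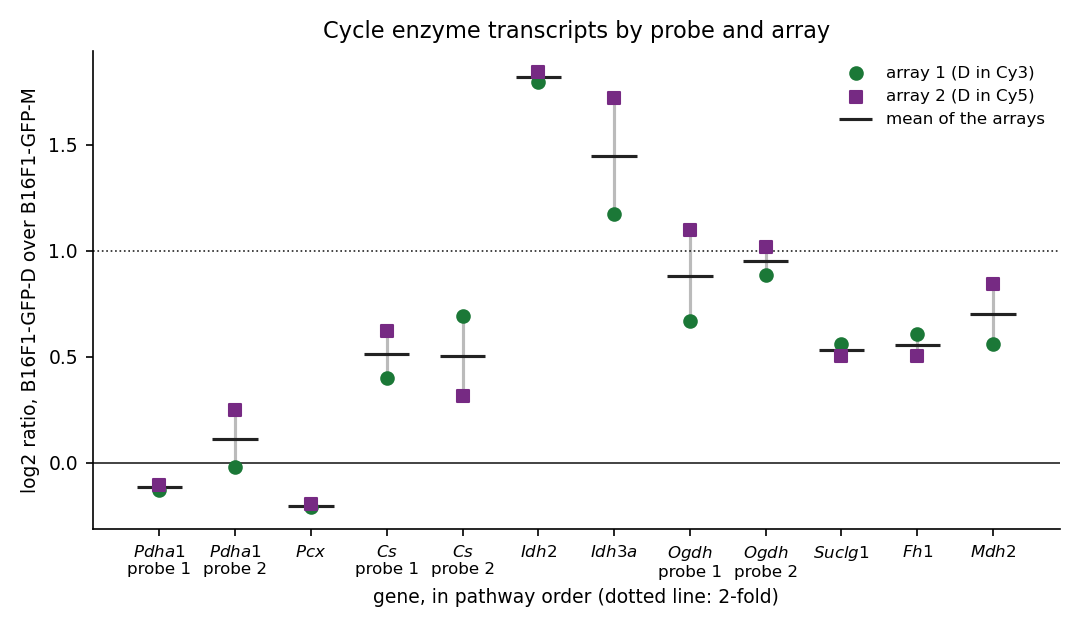
Log2 ratio, B16F1-GFP-D relative to B16F1-GFP-M, for each of the 12 probes, with array 1 as circles, array 2 as squares and their mean as a bar. The solid line marks no difference and the dotted line 2-fold. *Idh2* and *Idh3a* lie above the dotted line on both arrays, the probes of *Ogdh* lie on either side of it, and the second probe of *Pdha1* spans 0.

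By mean log2 ratio the order was *Idh2*, *Idh3a*, *Ogdh*, *Mdh2*, *Fh1*, *Suclg1*, *Cs*, *Pdha1* and *Pcx*. The values of *Ogdh* and *Mdh2*, of *Mdh2* and *Fh1*, of *Fh1* and *Suclg1*, and of *Suclg1* and *Cs* overlapped between the arrays, so these neighbours could not be ordered. *Idh2* and *Idh3a* did not overlap, by 0.63 on array 1 but by only 0.12 on array 2. *Idh3a* lay above *Ogdh*, and *Cs* above *Pdha1*, without overlap between the arrays. The lower value of *Idh3a* was 1.17 and the higher value of *Ogdh* 1.10. The last gap, of *Cs* over *Pdha1*, was 0.53 on array 1 and 0.73 on array 2, although the second probe of *Pdha1* narrows it.

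The median log2 ratio of the 9 genes was 0.56, beside -0.01 for all detected genes. Among the 7 cycle enzymes it was 0.70, and the lowest of them, *Cs*, was at 0.51. Across all detected genes, the log2 ratio had a pooled standard deviation between arrays of 0.15, and over the 9 genes it was 0.19. The values of *Pdha1* and *Pcx* were within or just over that spread, and those of the 7 cycle enzymes all exceeded it.

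**Figure D3:**
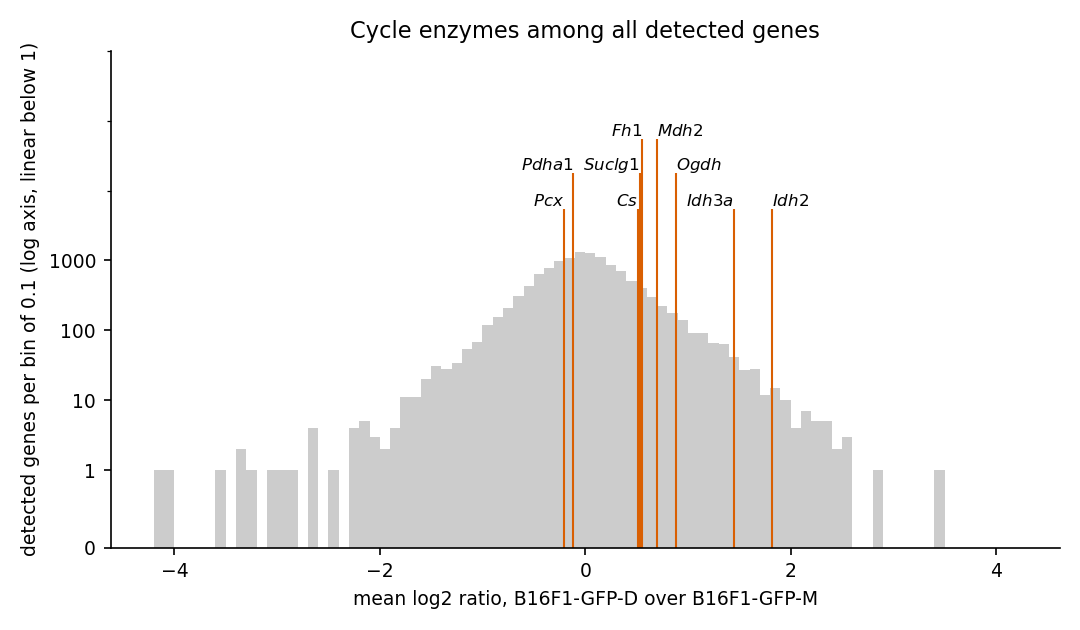
Number of detected genes (vertical axis, logarithmic above 1) in each step of 0.1 of the mean log2 ratio, B16F1-GFP-D relative to B16F1-GFP-M (horizontal axis), with the 9 genes as orange lines whose height has no meaning. *Pcx* and *Pdha1* stand near the centre of the distribution at -0.20 and -0.12, *Cs*, *Suclg1*, *Fh1*, *Mdh2* and *Ogdh* on its right flank from 0.51 to 0.88, and *Idh3a* and *Idh2* farther out at 1.44 and 1.82.

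The ratios of these genes on each single array, and with them the calls, depend on the intensity-dependent correction of the dyes. With each array only centred on its median, in place of the loess curve, all detected genes had a median of -0.86 (array 1) and 1.02 (array 2), and 0 of the 9 genes were called. Only *Idh2* and *Idh3a* were then above 0 on both arrays, at 0.76 and 3.18 for *Idh2* and at 0.13 and 3.15 for *Idh3a*. The means of the 2 arrays under median centring were 1.97 for *Idh2* and 1.64 for *Idh3a*, beside 1.82 and 1.44 with loess. The median of these means over the 9 genes was 0.86, beside 0.56 with loess, with *Pdha1* at 0.04 and *Pcx* at -0.17. Relative to the median of all detected genes on the same array, all 7 cycle enzymes were above 0 on both arrays under median centring too, with *Idh2* at 1.61 and 2.15, *Idh3a* at 0.98 and 2.13, and *Cs*, the lowest on array 1, at 0.19 and 1.37. On this scale *Pcx* stayed below 0 at -0.25 and -0.27, and *Pdha1* was at -0.31 and 0.23. The scanner software's own log ratio, which was normalized by the authors, gave 1.89 for *Idh2* as the mean of the arrays.

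**Figure D4:**
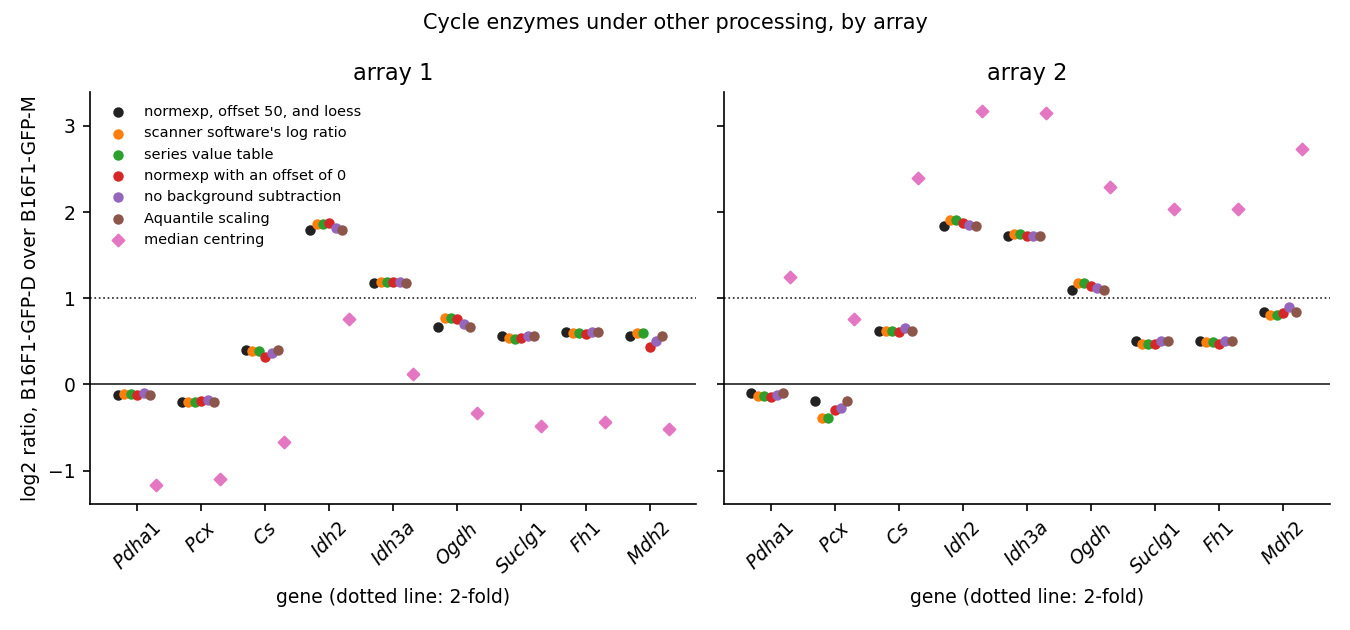
Log2 ratio, B16F1-GFP-D relative to B16F1-GFP-M (vertical axis), of the 9 genes on array 1 (left) and array 2 (right) under 7 ways to correct background and dyes, one colour each. The points of a gene lie close together for all settings except median centring (pink diamonds), which moved all 9 genes down on array 1 and up on array 2.

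The other subunits of the same complexes were read from a list of 58 further genes around the cycle, of which 56 had a probe and 52 were detected. All 10 other subunits of cycle enzymes had a log2 ratio above 0 on both arrays, and their median was 0.55. With the 7 cycle enzymes above, this makes 17 of 17 detected subunits, of which 3 were called as higher at 2-fold and 6 at 1.5-fold. These 17 were put together as a group after their values had been seen. Of all detected genes, 41.0% were higher on both arrays, 3.09% by 2-fold and 8.77% by 1.5-fold. *Sdhd*, a membrane anchor of succinate dehydrogenase (complex II of the respiratory chain), was the highest of the 10, at 1.34 ± 0.22, and was called. The other subunits of succinate dehydrogenase were at 0.81 ± 0.36 for *Sdha*, 0.70 ± 0.03 for *Sdhb* and 0.79 ± 0.22 for *Sdhc*. The probes of *Sdha* disagreed, as the dimmest of its 3 gave -0.17 ± 0.37.

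Subunits of 1 enzyme did not share 1 ratio. *Idh3g*, a regulatory subunit of the NAD-dependent isocitrate dehydrogenase, was the lowest of the 10 at 0.14 ± 0.02, and *Idh3b*, the other one, was at 0.58 ± 0.17. The log2 ratio of *Idh3a* exceeded that of *Idh3g* by 1.05 on array 1 and 1.56 on array 2, and that of *Idh3b* by 0.71 and 1.02. In succinyl-CoA synthetase, *Suclg1* was at 0.53 ± 0.04 and *Suclg2*, its GTP-forming beta subunit, at 0.53 ± 0.00, or 0.72 ± 0.18 by a second probe. The ATP-forming *Sucla2* was at 0.32 ± 0.29, or 0.68 ± 0.18 by a second detected probe, so that no order could be given within this enzyme. *Dlst*, the succinyltransferase of the 2-oxoglutarate dehydrogenase complex, was at 0.31 ± 0.21, beside 0.88 ± 0.31 for *Ogdh*. The other detected probes of *Dlst* gave 0.50 ± 0.17 and 0.29 ± 0.12.

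Of the other subunits of the pyruvate dehydrogenase complex, 0 of 4 were called at either fold. Of all detected genes, 5.02% were called at 2-fold and 15.8% at 1.5-fold. *Dlat*, its acetyltransferase, was the highest at 0.61 ± 0.32, but its second probe gave 0.38 ± 0.02. The probes of *Pdhx* gave 0.43 ± 0.19 and 0.13 ± 0.05, so which gene was highest depends on the probe. *Dld*, a dehydrogenase that also serves the 2-oxoglutarate complex, was the lowest at -0.07 ± 0.03. Its other probes gave 0.03 ± 0.08, on either side of 0, and -0.24 ± 0.12, lower on both arrays. With *Pdha1*, the 5 subunits had a median of 0.15, beside 0.58 for the 17 subunits of the cycle. Both groups were formed after their values had been seen. Of the kinases and phosphatases that switch this complex off and on, 4 were detected, *Pdk1*, *Pdk2*, *Pdk3* and *Pdpr*, a phosphatase regulatory subunit. Of these, 2 were higher by 1.5-fold, beside 8.77% of all detected genes, and 0 were called at 2-fold. *Pdk1*, a kinase that inactivates the complex, was the highest, with 0.99 on array 1 and 1.24 on array 2, and its dimmer probe gave 1.79 ± 0.05. *Pdk3* was at 0.79 ± 0.22, and *Pdk2* the lowest of the 4 at 0.03 ± 0.12. *Pdk4* was not detected. The brighter probe of *Pdp1*, from which the gene was read, was not detected either. Its dimmer probe was detected and gave -0.25 ± 0.07, lower on both arrays. Neither subunit of the mitochondrial pyruvate carrier was called, with *Mpc2* at 0.34 ± 0.06 and *Mpc1* at 0.03 ± 0.14.

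Of the 7 detected factors that assemble succinate dehydrogenase or attach lipoic acid to the dehydrogenase complexes, 1 was higher and 5 were lower on both arrays. Of all 12539 detected genes, 5142 were higher and 5363 lower on both. Among the 7 factors, 0 were called at either fold, beside 5.02% of all detected genes at 2-fold and 15.8% at 1.5-fold. The median of the 7 factors was -0.19. That median is the value of *Sdhaf2*, one of the 5, whose other detected probes gave 0.09 ± 0.17 and 0.06 ± 0.00, so its direction depends on the probe. The highest was *Sdhaf4* at 0.55 ± 0.35, and the lowest *Sdhaf1*, needed for iron-sulphur loading of *Sdhb*, at -0.41 ± 0.07.

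The list held 6 detected cytosolic enzymes, *Aco1*, *Idh1*, *Mdh1*, *Me1*, *Acly* and *Got1*. By their brightest probes, 6 of 6 were higher on both arrays, beside 41.0% of all detected genes. Their median was 0.58. *Mdh1*, the cytosolic malate dehydrogenase, was called, with 1.43 on array 1 and 1.69 on array 2, and a second detected probe gave 1.82 ± 0.14. It exceeded *Mdh2* by 0.86 on array 1 and 0.85 on array 2. *Idh1*, the cytosolic NADP-dependent isocitrate dehydrogenase, was at 0.78 ± 0.28, below *Idh2* by 0.82 on array 1 and 1.25 on array 2. The lowest of the 6, *Me1* (malic enzyme), was at 0.07 ± 0.00, but its second probe gave -0.12 ± 0.21 with values on either side of 0, and no direction could be assigned to it.

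Among 12 enzymes that fill or drain the cycle in mitochondria, ratios went both ways. *Got2*, the mitochondrial aspartate aminotransferase, was called as higher at 1.06 ± 0.08. *Pck2*, the mitochondrial phosphoenolpyruvate carboxykinase, was called as lower at -1.50 ± 0.01, or 2.83-fold, and was the only one of the 52 genes called in this direction, beside 1.94% of all detected genes. *Gpt2*, the mitochondrial alanine aminotransferase, was at -1.08 ± 0.11 and just missed the 2-fold limit on array 2. *Pck2* and *Gpt2* were the genes of the list that were lower by 1.5-fold. *Glud1*, which feeds glutamate carbon into the cycle, was at 0.29 ± 0.26.

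Of the 5 carriers that move cycle intermediates across the inner membrane, 2 were called as higher, beside 3.09% of all detected genes. *Slc25a10*, the dicarboxylate carrier, was at 1.44 ± 0.11 and *Slc25a13*, an aspartate-glutamate carrier, at 1.30 ± 0.16. *Slc25a12*, the other aspartate-glutamate carrier, was at 0.55 ± 0.04, and *Slc25a11*, the 2-oxoglutarate carrier, was the lowest with values on either side of 0 (0.01 ± 0.25). The genes of the malate-aspartate shuttle, which moves cytosolic reducing equivalents to the matrix, were grouped after their values had been seen. Of these 7, *Mdh1*, *Got2* and *Slc25a13* were called as higher (3.09% of all detected genes were), *Mdh2*, *Slc25a12* and *Got1* (0.28 ± 0.13) were higher on both arrays without being called, and *Slc25a11* was not.

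**Figure D5:**
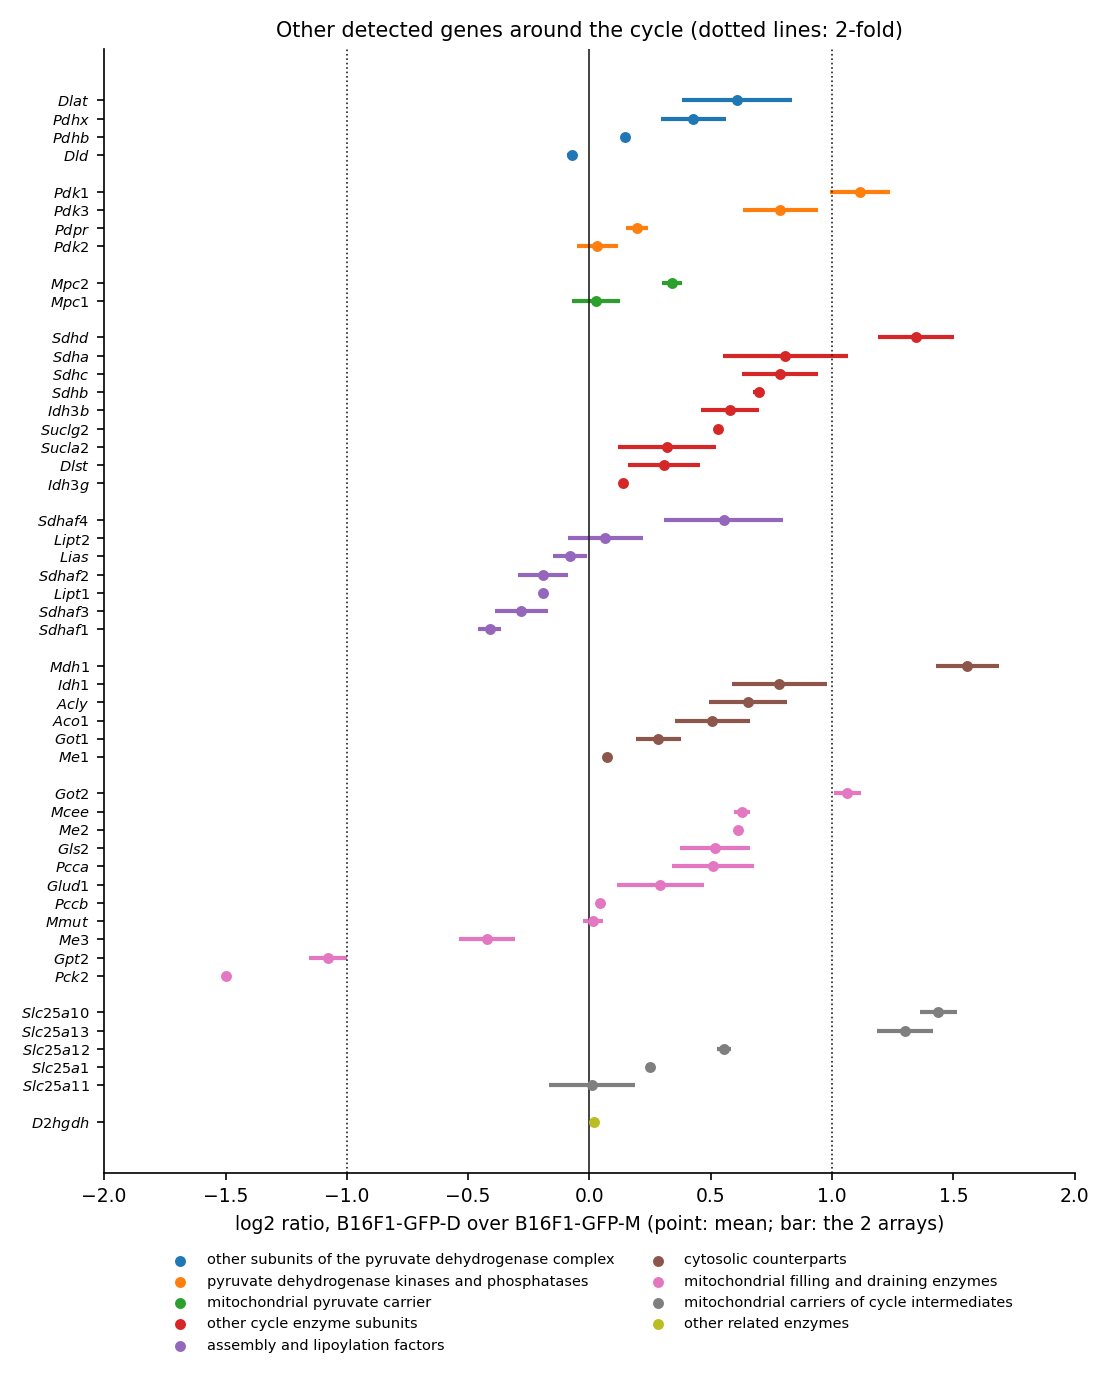
Log2 ratio, B16F1-GFP-D relative to B16F1-GFP-M (horizontal axis), of 49 of the 52 detected genes around the cycle, coloured by group. A point is the mean and a bar the range of the 2 arrays, and dotted lines mark 2-fold in either direction. The other cycle subunits shown (red) lie wholly to the right of 0, the assembly and lipoylation factors (purple) mostly to the left, and *Pck2* alone lies with its whole bar left of the lower line.

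Over all 52 genes, the median log2 ratio was 0.33, beside -0.01 for all detected genes. At 2-fold, 5 were higher and 1 was lower, beside 3.09% and 1.94% of all detected genes. At 1.5-fold 12 were higher and 2 were lower, beside 8.77% and 7.02%. *Pdp2* and *Pck1* were not analysed here, and *Ogdhl* and *Acod1* were not detected.

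Promoter sequence was used for 8 of the 9 genes (all but *Idh3a*), from RefSeq on GRCm38.p6, and the 250 bases before each start site were searched on both strands for 6 short motifs. The GC box GGGCGG was found in 6 genes (*Cs*, *Fh1*, *Idh2*, *Mdh2*, *Ogdh* and *Pcx*) and in 32.7% of all 32851 promoters, and CCAAT in 5 (*Cs*, *Fh1*, *Idh2*, *Ogdh* and *Pcx*) and 33.8%. The E-box CACGTG was found in *Ogdh* and *Pcx* and in 6.02% of all promoters, the cAMP response element TGACGTCA in *Mdh2* and *Ogdh* and in 1.55%, the NRF1 core GCGCATGC in *Ogdh* and in 2.26%, and the AAGGTCA core of oestrogen-related receptor sites in 0 of 8 and in 4.08%. *Ogdh* has 6 start sites in this table and *Pcx* 2, so that they had more sequence to match. The promoters of *Idh2* and of the upstream start of *Pcx* are shown because these genes stood at both ends of the order, with matches to any of the 6 motifs, on either strand, in capitals. They lie at chr7:80115351-80115600 on the minus strand and chr19:4510222-4510471 on the plus strand of GRCm38.p6, and are written on the strand of the gene.
Idh2 promoter: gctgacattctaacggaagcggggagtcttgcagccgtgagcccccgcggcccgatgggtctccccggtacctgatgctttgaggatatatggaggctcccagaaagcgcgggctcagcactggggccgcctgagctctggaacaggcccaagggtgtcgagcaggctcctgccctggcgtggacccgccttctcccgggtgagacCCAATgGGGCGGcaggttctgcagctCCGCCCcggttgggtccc
Pcx promoter: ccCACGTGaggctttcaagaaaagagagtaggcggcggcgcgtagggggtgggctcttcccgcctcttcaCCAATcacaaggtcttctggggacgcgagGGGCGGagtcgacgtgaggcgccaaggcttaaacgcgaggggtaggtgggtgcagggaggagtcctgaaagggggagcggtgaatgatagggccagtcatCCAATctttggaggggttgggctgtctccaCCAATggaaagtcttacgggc
The *Idh2* promoter held 3 matches, a CCAAT box and a GC box next to each other and a second GC box, and the *Pcx* promoter held 5, an E-box, a GC box and 3 CCAAT boxes. None of these matches overlapped another. A match is a stretch of letters and does not show that a factor binds there.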

How the data were processed

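Total RNA from both melanoma lines was measured on 2 two-colour arrays with exchanged dyes. The spot and background intensities were measured by the authors with Agilent Feature Extraction 10.7.3.1 and were not normalized. The deposited log10 ratios of Cy5 over Cy3 come from the software's background-subtracted and dye-normalized signals, and the deposited series value table repeats these log10 ratios in rounded form. No normalization or threshold for the arrays is given in the sources used here. Flags for spots well above background, saturated or outlying were those of the deposited files.

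The 43379 non-control spots belonged to 41174 probes, and outliers (143 and 176 spots on arrays 1 and 2) were dropped. Background was corrected with normexp (offset of 50, which draws ratios of dim spots towards 0) and dyes with loess in each array, using limma 3.58.1 under R 4.3.3. Ratios of the dye swap were turned so that positive log2 values mean more RNA in B16F1-GFP-D, and spots of a probe were averaged. Intensities per line were rebuilt from the normalized mean intensity and ratio. A gene was read from its brightest probe and named through its RefSeq accession (27192 probes matched; GRCm38.p6 for names and promoters) or else by the file. Positions are those of the files (mm9). Detection needed a probe well above background in at least 1 line on both arrays. Calls go by size alone, with no test. The procedure was tested on simulated data with the same dye offset at every spot. That does not test the intensity-dependent part of the dye correction. All 9 genes are named, and of the other genes those called at 2-fold and the highest and lowest of each group, with the subunits of the same complexes and a few others added after values were seen. The 9 genes and the lists were chosen with earlier results of these data known. Values of 3 listed genes are not reported here, although the counts include them. There were 11 alternatives. Figures were made with Python 3.11.15, pandas 2.3.3 and matplotlib 3.10.9.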

Additional observations from a re-analysis of the deposited data

How the results depend on the processing

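No paired analysis was possible because there is 1 replicate per line. Counts and medians were recomputed under 11 alternatives. Median centring in place of loess called 0 of the 9 genes at 2-fold and 1 at 1.5-fold, left 2 of them higher on both arrays, moved their median log2 ratio from 0.56 to 0.86, called 0 of the other genes at 2-fold and 0 at 1.5-fold, and moved their median from 0.33 to 0.53. Under this setting, all detected genes together gave 45 higher and 19 lower calls, against 387 and 243. Array 2 alone gave 5 of the 9 genes and 23 of the others past 1.5-fold, against 3 and 14 with both arrays, and a median of 0.62 for the 9 genes. This setting needs only 1 array to pass and detected 15196 genes, against 12539, so counts of any genes can only stay or rise. All detected genes then gave 517 higher and 303 lower calls at 2-fold, against 387 and 243. Their share past 1.5-fold on array 2 alone was not computed. The 67 other recomputed counts and medians stayed within 1.5 times the count, or within the standard deviation between the arrays. Aquantile scaling leaves a ratio within an array as it is. *Idh2* and *Idh3a* were called under every alternative except median centring, and *Ogdh* also with array 2 alone. The mean log2 ratio of *Idh2* ranged from 1.80 to 1.97 over all settings, that of *Idh3a* from 1.17 to 1.72, and that of *Pcx* from -0.30 to -0.17, while *Pdha1* ranged from -0.14 to 0.04. *Pdk1* was called at 2-fold with the scanner software's ratio, the series value table, an offset of 0, no background subtraction, the median of its probes and array 2 alone. *Gpt2* was called with the first 4 of these and with array 1 alone, *Got2* was not called with an offset of 0, and *Sdha* was called with array 2 alone. The cause of these changes was not tested. With 1 replicate per line, variation between cultures is not known.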
